A study of Homo sapiens with 21 samples.

Results

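RUNX1 binding was examined around 5 genes that encode partners of the TAL1 transcription factor complex, LMO1, LMO2, LYL1, TCF3 and TCF12. A peak belonged to a gene where its summit lay in a fixed hg19 window, chr11:8235000-8300000 for LMO1, chr11:33870000-33980000 for LMO2, chr19:13200000-13224000 for LYL1, chr19:1599000-1663000 for TCF3 and chr15:57200000-57591000 for TCF12. The rule used position and no binding value. Summits were widened by 100 bp on each side and merged over the 14 peak lists of the series, which gave 122 regions in the 5 windows of 190855 regions in all. They held 427 of the 791439 deposited peaks.

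TAL1 is a basic helix-loop-helix factor that binds E-box DNA only as a dimer with an E-protein, and LIM-only adaptors bridge this dimer to LDB1 and GATA factors. In T-cell leukaemia the complex is switched on aberrantly, and RUNX1 and ETS factors occupy many of the enhancers it binds. LMO1 and LMO2 are the LIM-only adaptors, LYL1 is a close relative of TAL1 that can take its place, and TCF3 (the E2A gene, source of E12 and E47) and TCF12 (HEB) are the E-protein partners. Jurkat cells, a line from a T-cell acute lymphoblastic leukaemia, are known to express TAL1 and LMO1.

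The series measured RUNX1 by ChIP-seq in untreated Jurkat clones that carry a RUNX1 variant by knock-in, each grown from a single cell. The variants were the frameshift R232fs (2 clones), the stop codon Y287X (2 clones) and the missense change G365R (2 clones), and 1 WT clone of the parental line served as their reference. Anti-HA precipitated the mutant protein in the mutant clones, whereas anti-TY1 precipitated the wild-type protein of the same cells. In WT cells, either tag was carried by wild-type RUNX1. Each clone gave 1 HA and 1 TY1 peak list. The labelled control libraries, 7 in number, were not analysed here, and peak lists hold no expression value with which to check the cell type. R232fs and Y287X are called truncating below.

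The windows spanned 65 kb at LMO1, 110 kb at LMO2, 24 kb at LYL1, 64 kb at TCF3 and 391 kb at TCF12. They reach past the genes, by 76.5 kb in total at LMO2 and by 17.8 to 20.7 kb at the other genes, judged by gene lengths in GRCh38. No hg19 gene model was used, so no region is called a promoter, exon or intron. Regions are named by gene and by the distance of their centre from the lower-numbered end of the window, as in LMO2 +45.5 kb.

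The promoters of these genes were read from RefSeq (GRCh38.p14) for RUNX, E-box and GATA letters. An entry was found for LMO1, LYL1 and TCF3, and 5 for TCF12. On both strands, the RUNX letters TGTGGT and TGCGGT occurred in none of these 8 windows, beside 13.1% and 7.29% of all 35116 promoter windows. E-box letters (CANNTG) occurred in 2 of the 5 TCF12 windows and in none of the other 3, beside 68.7% of all promoters. The GATA letters AGATAA occurred only at LYL1, beside 10.3% of all promoters. Both sequences below are shown because they hold the GATA or E-box letters searched for, given in capitals. The E-box letters leave the middle bases open, so a match does not show a site that the TAL1 complex prefers. Each runs from 250 bases before to 30 bases after the start. At LYL1 (chr19:13102829-13103108, minus strand, GRCh38) the capitals are the GATA letters on the opposite strand, beginning at base 2 after the start. At TCF12 (chr15:56917840-56918119, plus strand, GRCh38) the capitals are an E-box beginning at position -183. These are matches of letters, on another build than the peaks, and were not joined to any peak.
LYL1: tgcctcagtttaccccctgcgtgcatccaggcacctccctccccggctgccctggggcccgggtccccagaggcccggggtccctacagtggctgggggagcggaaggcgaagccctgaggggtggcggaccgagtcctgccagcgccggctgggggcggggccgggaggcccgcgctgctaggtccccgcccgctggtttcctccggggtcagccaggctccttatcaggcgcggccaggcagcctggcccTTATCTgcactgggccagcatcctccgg
TCF12: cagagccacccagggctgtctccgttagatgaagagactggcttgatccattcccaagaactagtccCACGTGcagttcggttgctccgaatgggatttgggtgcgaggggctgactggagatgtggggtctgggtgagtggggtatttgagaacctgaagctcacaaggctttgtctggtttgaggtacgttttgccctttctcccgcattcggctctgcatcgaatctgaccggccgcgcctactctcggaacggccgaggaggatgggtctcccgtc

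Of the 122 regions, 6 had a summit in all 14 lists. This is 4.92% of the window regions, beside 5.92% of all regions. LMO1 and LMO2 each held 2 of the 6, and TCF3 and TCF12 held 1 each. A further 8 regions were in 10 to 13 lists, 46 in 2 to 9 lists, and 62 in a single list (50.8%, beside 42.3% of all regions). TCF12 held 64 regions, LMO2 34, TCF3 10, and LMO1 and LYL1 7 each. Per 100 kb, LMO2 (30.9 regions) and LYL1 (29.2) had more than TCF12 (16.4), TCF3 (15.6) and LMO1 (10.8). Median fold enrichment, the peak caller's own value for a peak over its local background, was 3.92 over the window peaks and 3.83 over all peaks.

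**Figure D1:**
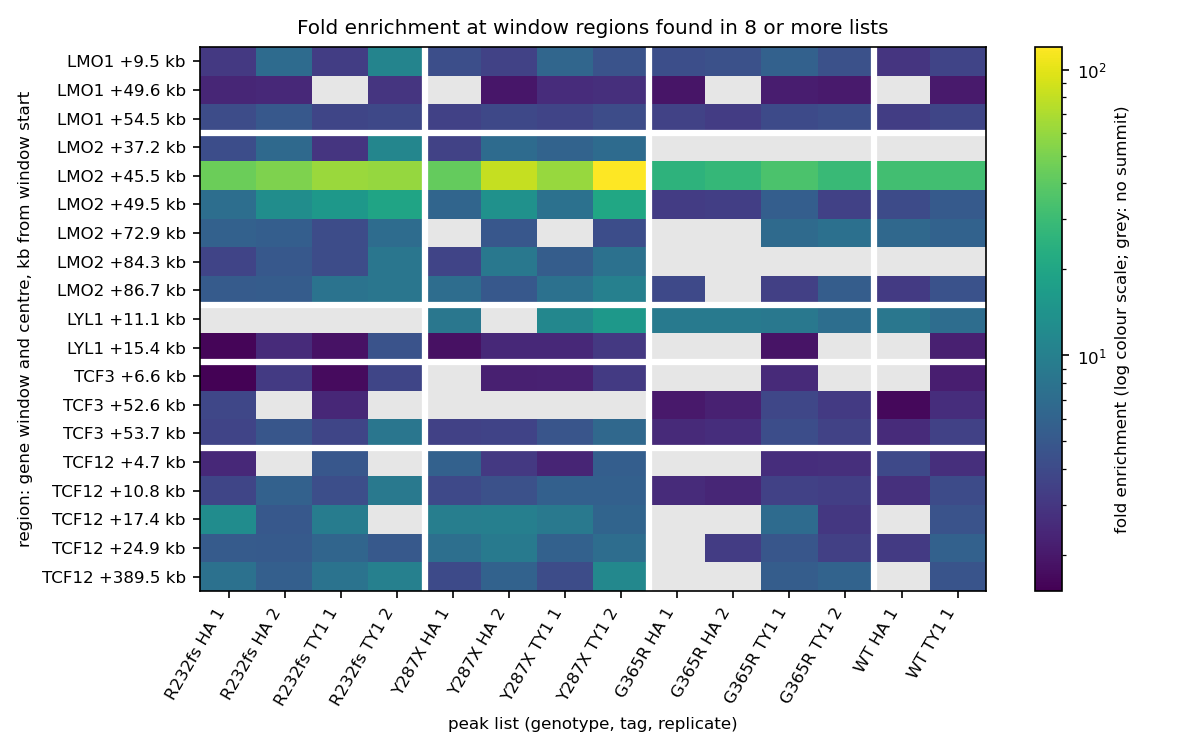
Fold enrichment on a log colour scale at the 19 window regions with a summit in 8 or more lists (vertical axis, gene and kb from the window start) in the 14 peak lists (horizontal axis). LMO2 +45.5 kb is the brightest region in every list, and LMO2 +37.2 kb and +84.3 kb are grey in all 6 G365R and WT lists.

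LMO2 carried the strongest RUNX1 peak of the 5 genes. At LMO2 +45.5 kb (chr11:33915420-33915677) the peak had a median fold of 43.8 and ranked between 42 and 512 in its list by fold, of 30563 to 86433 peaks. Fold was 45.1 and 51.8 with HA and 62.0 and 59.9 with TY1 in the R232fs clones. In the Y287X clones it was 42.5 and 82.1 with HA and 60.7 and 119.8 with TY1. In the G365R clones it was 25.3 and 27.8 with HA and 34.7 and 29.1 with TY1, and in the WT clone 31.6 with HA and 31.7 with TY1. All 8 truncating lists were above all 6 G365R and WT lists in fold. Among regions found in all lists, the share with this pattern in fold was not counted. By ranks of fold within each list it was 6.37%. HA and TY1 overlapped as groups, although TY1 was above HA within each of the 7 clones. Summits of the 14 peaks lay within 57 bp of each other. The lists themselves differ in scale: the highest fold of any peak was 174 to 369 in the truncating lists and 61.0 to 89.3 in the G365R and WT lists. LMO2 +45.5 kb reached 19.9% to 32.5% of that highest fold in the truncating lists and 28.4% to 51.9% in the G365R and WT lists.

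A second LMO2 region in all lists lay 4075.5 bp above it by the median summits. At LMO2 +49.5 kb (chr11:33919325-33919773) fold was 7.32 and 13.0 with HA and 15.4 and 19.4 with TY1 in the R232fs clones. It was 6.25 and 13.8 with HA and 7.67 and 20.6 with TY1 in the Y287X clones. The G365R clones had 3.28 and 3.39 with HA and 5.54 and 3.48 with TY1, and the WT clone 4.09 with HA and 5.21 with TY1. The truncating lists again lay above all others in fold without overlap, and the share of regions with this pattern in fold was again not counted. By ranks of fold among the regions found in all lists the region also had this pattern, beside 6.37% of those regions. TY1 was again above HA in each of the 7 clones. The truncating lists were also above the others by place in the list. The region's percentile of fold was 83.8 to 97.2 in the truncating lists and 28.8 to 70.5 in the G365R and WT lists.

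LMO2 also held 2 regions with a summit in all 8 truncating lists and in none of the 6 others, a pattern shown by 0.176% of all regions. None of the 122 had the opposite pattern, all 6 G365R and WT lists and no other (0.252% of all regions). Both were still 8 and 0 when whole peaks were counted in place of summits. At LMO2 +37.2 kb (chr11:33906946-33907382) fold was 4.20, 6.71, 2.95 and 11.2 in the R232fs HA 1, HA 2, TY1 1 and TY1 2 lists. The same order in Y287X gave 3.58, 6.98, 6.04 and 6.997. At LMO2 +84.3 kb (chr11:33954038-33954578), which was singled out after its values were seen, fold was 3.66, 4.98, 4.18 and 8.38 in R232fs and 3.71, 8.72, 5.42 and 7.63 in Y287X. HA and TY1 lists, and so mutant and wild-type protein, both had these regions in every truncating clone.

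Over the 5 windows, 78 regions were seen only in truncating lists (63.9%, beside 52.4% of all regions) and 10 only in G365R or WT lists (8.197%, beside 13.2%). LMO2 supplied 25 of the 78, from 34 regions, and 1 of the 10. The truncating lists are 8 of 14 and hold 40112 to 86433 peaks, against 30563 to 61793 in the G365R and WT lists. Of the 8, 4 are longer than the longest G365R or WT list, and presence in a list depends on its length. Genotype and the kind of list cannot be told apart here.

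Among the weaker LMO2 regions, LMO2 +86.7 kb (chr11:33956483-33956902) was in 13 lists. Its fold was 5.04 to 7.15 with HA and 7.67 to 10.1 with TY1 in the truncating clones. It was 3.92 in G365R HA 1, 3.46 and 5.42 in G365R TY1, and 3.18 with HA and 4.52 with TY1 in the WT clone. The missing list, G365R HA 2, had a summit of fold 5.21 only 485 bp from the nearest of these. LMO2 +72.9 kb (chr11:33942717-33943101) was in 10 lists. Its fold was 5.90 and 5.58 with HA and 4.18 and 7.06 with TY1 in R232fs, and in the second Y287X clone 4.89 with HA and 4.24 with TY1. Both G365R TY1 lists had it (6.87 and 7.59) and neither G365R HA list did, while the WT clone had 6.62 with HA and 5.95 with TY1. LMO2 +28.8 kb (chr11:33898690-33898960) was in both R232fs TY1 lists (4.31 and 5.29) and neither R232fs HA list, yet in all 4 Y287X lists (4.15 and 7.02 with HA, 4.51 and 4.88 with TY1). LMO2 +21.97 kb was weak, at 1.94 and 1.99 in the Y287X TY1 lists, 2.07 in R232fs HA 1 and 2.68 in G365R TY1 1.

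**Figure D2:**
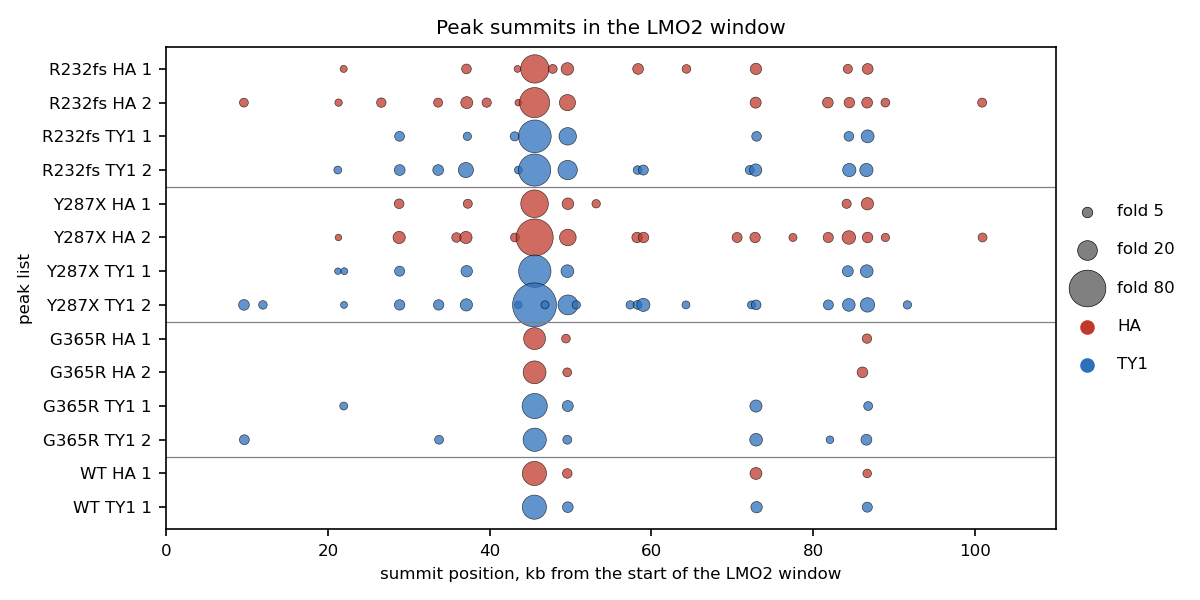
Peak summits in the LMO2 window (horizontal axis, kb from the window start) in each of the 14 lists (vertical axis), with HA in red, TY1 in blue and dot area growing with fold. All lists share the column at 45.5 kb and the smaller one at 49.5 kb, and the R232fs and Y287X lists hold 7 to 21 summits, against 3 to 7 in the G365R and WT lists.

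LMO1 showed 2 peaks shared by all lists, both weaker than those of LMO2. At LMO1 +9.5 kb (chr11:8244324-8244750) fold was 3.11 and 6.95 with HA and 3.32 and 10.7 with TY1 in R232fs, and 4.31 and 3.57 with HA and 6.33 and 4.63 with TY1 in Y287X. It was 4.31 and 4.42 with HA and 5.83 and 4.45 with TY1 in G365R, and 2.93 with HA and 3.71 with TY1 in WT. The groups overlapped, and the R232fs clones differed from each other by more than the tags did. Within each of the 7 clones TY1 was above HA.

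At LMO1 +54.5 kb (chr11:8289389-8289688) values lay close together. Fold was 4.17 and 5.00 with HA and 3.72 and 3.87 with TY1 in R232fs, and 3.49 and 3.86 with HA and 3.68 and 4.16 with TY1 in Y287X. It was 3.55 and 3.27 with HA and 4.03 and 4.33 with TY1 in G365R, and 3.32 with HA and 3.78 with TY1 in WT. In fold itself, HA was above TY1 in both R232fs clones and below it in the 5 other clones. LMO1 +49.6 kb was in 10 lists at a low fold of 1.91 to 2.96. The other 4 LMO1 regions were seen in 1 to 3 lists: LMO1 +50.5 kb had 3.68 in R232fs HA 2, 2.15 in Y287X HA 2 and 2.38 in WT TY1, LMO1 +22.9 kb had 2.77 in R232fs HA 2, LMO1 +34.7 kb had 3.06 in R232fs HA 1, and LMO1 +34.0 kb had 1.72 in that same list.

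At LYL1 every list had 1 broad peak of 1403 to 1792 bp over the same place, but its summit sat at either of 2 positions. The summit was at LYL1 +10.3 kb (chr19:13210218-13210437) in all 4 R232fs lists and in Y287X HA 2. It was at LYL1 +11.1 kb (chr19:13210978-13211217), 767 bp away by the medians, in the other 3 Y287X lists and in all G365R and WT lists. The deposited peak covered both positions in 14 of 14 lists. Fold at the summit was 3.72 and 5.47 with HA and 3.71 and 6.97 with TY1 in R232fs. In Y287X it was 8.58 and 4.19 with HA and 11.5 and 15.6 with TY1. The G365R lists had 8.94 and 9.04 with HA and 8.62 and 7.31 with TY1, and the WT lists 8.58 with HA and 7.22 with TY1. Fold was 7.22 to 15.6 in the 9 lists with the summit at +11.1 kb and 3.71 to 6.97 in the 5 with it at +10.3 kb. These values were read at different positions, and the share of all regions with such a split was not counted. The −log10 q of the same peaks overlapped, at 158 to 430 in the 9 lists and 104 to 296 in the 5. The absence of LYL1 +11.1 kb from R232fs, seen after its values were known, is one of summits only: counted by whole peaks, it was in all 14 lists, R232fs included.

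**Figure D3:**
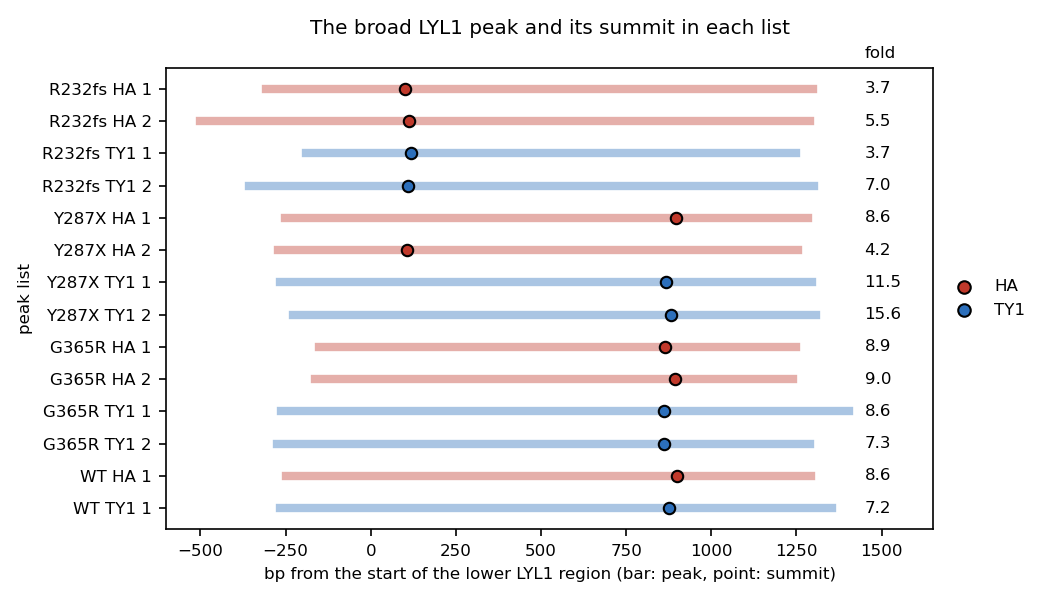
Extent (bar) and summit (point) of the broad LYL1 peak in each of the 14 lists (vertical axis), in bp from the start of the lower region (horizontal axis), with the fold at right and HA in red, TY1 in blue. The 4 R232fs summits and that of Y287X HA 2 lie 100 to 119 bp from that start and the 9 others 860 to 899 bp from it, while the bars cover the same stretch.

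LYL1 +15.4 kb (chr19:13215245-13215548) was in all 8 truncating lists, at 1.60 to 4.61, and in G365R TY1 1 (1.87) and WT TY1 (2.205). LYL1 +4.8 kb was in both Y287X TY1 lists (1.78 and 1.70) and neither Y287X HA list, and in R232fs at 2.03 in HA 2 and 2.60 in TY1 2. LYL1 +13.7 kb was seen in the second R232fs clone, at 2.37 with HA and 4.97 with TY1. Both remaining LYL1 regions were each in a single R232fs HA list, at 1.57 in HA 1 and 1.61 in HA 2.

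Of the E-proteins, TCF3 had 1 region in all lists. At TCF3 +53.7 kb (chr19:1652424-1652961) fold was 3.67 and 4.88 with HA and 3.72 and 8.42 with TY1 in R232fs, and 3.50 and 3.63 with HA and 4.74 and 6.58 with TY1 in Y287X. It was 2.55 and 2.66 with HA and 4.19 and 3.59 with TY1 in G365R, and 2.56 with HA and 3.50 with TY1 in WT. Within each of the 7 clones fold was higher with TY1 than with HA, although the groups overlapped. A neighbour at TCF3 +52.6 kb (chr19:1651347-1651761), 1325 bp below by the medians, had a summit in 8 lists: 3.80 with HA and 2.45 with TY1 in the first R232fs clone, 2.02 and 2.24 with HA and 3.78 and 3.18 with TY1 in G365R, and 1.64 with HA and 2.66 with TY1 in WT. These 8 lists had 2 separate peaks of 276 to 1304 bp. In the other 6 lists, from the second R232fs clone and both Y287X clones, a single peak of 2597 to 2880 bp spanned both positions. By whole peaks, both TCF3 regions were therefore in all 14 lists.

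TCF3 +6.6 kb was in 9 lists at 1.55 to 3.72. The other 7 TCF3 regions were each in a single list, the strongest being TCF3 +11.9 kb (3.13 in Y287X TY1 2), TCF3 +31.8 kb (2.80 in R232fs HA 2) and TCF3 +25.6 kb (2.28 in R232fs TY1 2).

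TCF12 had the most regions and the longest window, and 35 of its 64 regions were in a single list. The region shared by all lists was TCF12 +10.8 kb (chr15:57210692-57210962). Its fold was 3.77 and 5.85 with HA and 4.33 and 8.79 with TY1 in R232fs, and 3.91 and 4.43 with HA and 5.75 and 5.72 with TY1 in Y287X. It was 2.59 and 2.42 with HA and 3.50 and 3.39 with TY1 in G365R, and 2.73 with HA and 4.10 with TY1 in WT. Fold was higher with TY1 in each of the 7 clones. The highest median fold at TCF12, 7.85, was at TCF12 +17.4 kb (chr15:57217249-57217530), in 10 lists. There R232fs had 12.6 and 4.98 with HA and 9.41 in TY1 1, and Y287X had 9.83 and 9.996 with HA and 8.80 and 6.15 with TY1. Only the TY1 lists had it outside the truncating clones, at 6.90 and 3.04 in G365R and 4.64 in WT.

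TCF12 +389.5 kb (chr15:57589387-57589665) was in 11 lists. Its fold was 7.63 and 5.64 with HA and 7.90 and 10.2 with TY1 in R232fs, and 3.99 and 5.998 with HA and 4.14 and 11.7 with TY1 in Y287X. It was 5.46 and 6.03 in the G365R TY1 lists and 4.66 in WT TY1, and absent from the HA lists of these clones. TCF12 +213.1 kb was also in both G365R TY1 lists (5.16 and 5.06) and neither G365R HA list. It had 6.53 in R232fs TY1 1, 4.96 in Y287X TY1 1, and 4.29 with HA and 4.96 with TY1 in WT. The reverse pattern, both G365R HA lists and neither TY1 list, was met by TCF12 +116.6 kb (4.21 and 4.27), which R232fs HA 1 (4.07) and Y287X TY1 2 (3.39) also had.

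Of the 10 regions seen only in G365R and WT lists, TCF12 held 9 and LMO2 the other one. TCF12 +51.7 kb (chr15:57251535-57251810) had 7.23 in G365R TY1 2, and 4.65 with HA and 6.65 with TY1 in WT. TCF12 +310.1 kb (chr15:57509977-57510265), singled out after its values were seen, was in 5 of those 6 lists: 5.69 in G365R HA 2, 4.97 and 7.59 in G365R TY1, and 5.55 with HA and 4.82 with TY1 in WT. Other regions were seen mostly in truncating lists. TCF12 +63.3 kb was in both R232fs HA lists (4.27 and 3.39) and neither R232fs TY1 list, and in all Y287X lists (3.28 and 4.81 with HA, 3.25 and 4.54 with TY1). TCF12 +225.7 kb was in 5 lists, at 5.69 in R232fs HA 1, 6.27 in R232fs TY1 1, 4.68 in Y287X HA 2, 6.79 in Y287X TY1 2 and 2.54 in WT TY1. TCF12 +230.6 kb was in R232fs TY1 1 only (7.06).

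Presence by tag was then compared within each genotype. In R232fs, 1 of 122 window regions had a summit in the HA list of both clones and no TY1 summit (3.98% of all regions), and 1 had TY1 summits in both clones and no HA summit (0.27% of all regions). In Y287X the counts were 0 for HA (0.679%) and 2 for TY1 (1.2%). In G365R they were 1 for HA (0.24%) and 7 for TY1 (7.85%), and TCF12 supplied 6 of these 7. In the WT clone, where both tags mark wild-type protein, 5 regions were in the HA list only (3.33%) and 11 in the TY1 list only (14.8%). In all, 42 regions were seen in HA lists only (34.4%, beside 30.2%) and 24 in TY1 lists only (19.7%, beside 19.7%).

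Window peaks were also counted in each list, beside all peaks of that list. R232fs had 52 and 44 HA peaks in the 5 windows, against 26 and 29 TY1 peaks, a mean log2 HA over TY1 ratio of 0.80 ± 0.28 (SD, n = 2 clones) beside 0.75 for all peaks. Y287X had 24 and 41 HA peaks, against 31 and 56 TY1 peaks, a log2 ratio of -0.41 ± 0.057 (SD, n = 2) beside -0.11 for all peaks. G365R had 11 and 13 HA peaks, against 25 and 27 TY1 peaks, a log2 ratio of -1.12 ± 0.092 (SD, n = 2) beside -0.96 for all peaks. The WT clone had 21 HA and 27 TY1 peaks (-0.36, beside -0.67). Cut to lists of equal length, the log2 ratio was -0.51 in R232fs, -0.11 in Y287X, -0.0050 in G365R and 0.10 in WT, so the R232fs and WT directions turned. LMO2 had 11 and 15 HA peaks, against 8 and 13 TY1 peaks, in R232fs, and 3 and 3 HA peaks, against 5 and 7 TY1 peaks, in G365R.

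Strength was tested at the 6 regions found in all lists, the only members for which every list has a value. Fold was ranked within each list over the 11291 regions of all lists and turned into normal scores, on which a difference of 1 is 1 SD of a list, and limma with Benjamini-Hochberg adjustment over all 11291 regions was applied. In the TY1 lists, the score of LMO2 +49.5 kb was higher in truncating than in G365R clones by 1.35 ± 0.33 (SE, adjusted p = 0.0459, limma). This was the 1 of 6 called, beside 4.57% of all regions called and 2.49% called higher. On leaving out R232fs clone 2, either Y287X clone or either G365R clone, the difference ranged from 1.03 to 1.67. Each of these fits left 1 list in a group, so whether the call held was not judged there. The call was lost with clone as a random effect (adjusted p = 0.0538, limma), where 0 of 6 were called beside 3.44% of all regions. It was also lost when regions of at least 10 lists entered the fit (adjusted p = 0.0775, limma), beside 238 of all 30542 regions called. In the HA lists the same region differed by 0.95 ± 0.33 (SE, adjusted p = 0.0875, limma), and 0 of 6 regions were called, beside 9.53% of all. At an unadjusted p under 0.05 there were 2 of 6, beside 3358 of all 11291 regions. LMO2 +45.5 kb differed by 0.37 ± 0.14 in the HA lists (SE, adjusted p = 0.11) and by 0.44 ± 0.14 in the TY1 lists (SE, adjusted p = 0.0988). Both LMO2 regions, 2 of the 6, had all 8 truncating scores above all 6 G365R and WT scores, beside 6.37% of all regions, and none had all of them below (4.87% of all regions). The median of the 6 differences was 0.081 in the HA and 0.33 in the TY1 lists, beside 0.039 and 0.049 over all regions. When the peak caller's p-values were ranked in place of fold, 4 of 6 regions were called in each of these contrasts. Of all 11291 regions, 4472 were then called in the HA and 2740 in the TY1 lists. By those ranks LMO2 +45.5 kb turned to -0.012 in the HA and -0.13 in the TY1 lists.

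**Figure D4:**
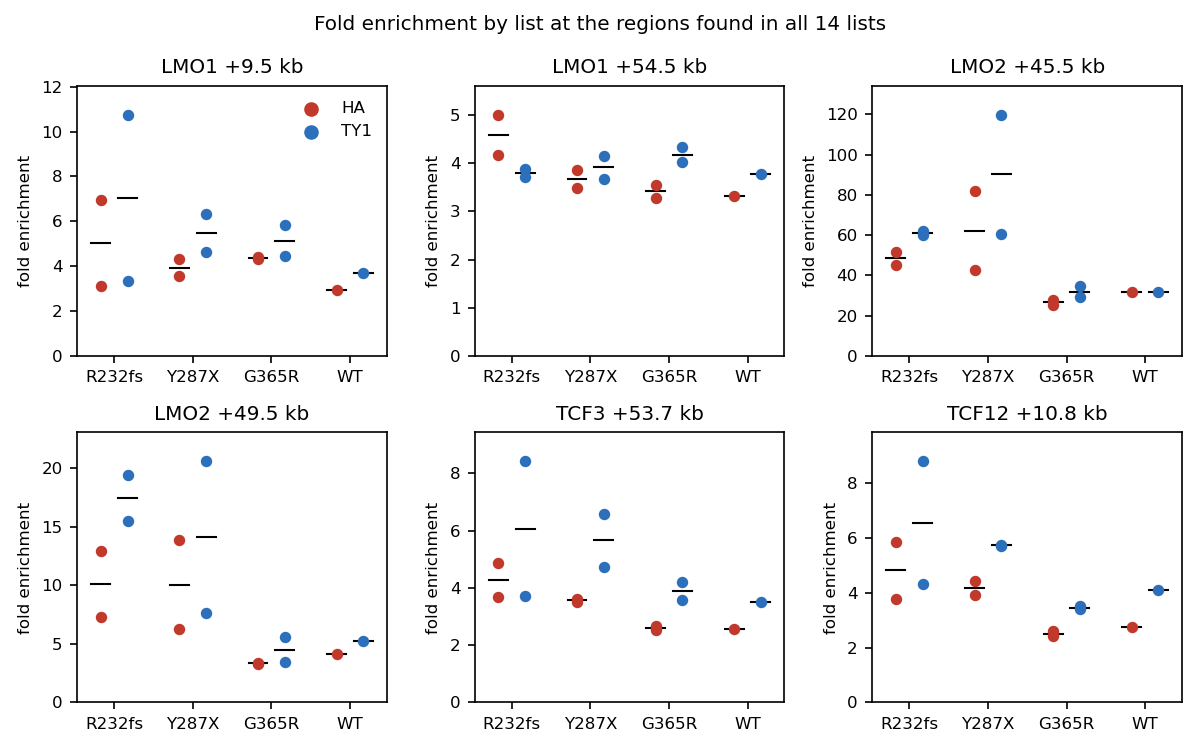
Fold enrichment (vertical axis, linear from 0) at the 6 regions found in all 14 lists, by genotype (horizontal axis), with HA in red and TY1 in blue. Points are lists, black bars the mean of a genotype and tag (n = 2 clones, WT n = 1), and both LMO2 panels show every R232fs and Y287X point above every G365R and WT point. The share of all regions with this pattern in fold was not counted, and the lists differ in their scale of fold.

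Mutant and wild-type protein of the same clones were compared by HA minus TY1. Without clone in the model, 0 of 6 regions were called in R232fs, Y287X, G365R, their mean, or in truncating minus G365R clones, beside 0.0% of all regions in each (limma). At an unadjusted p under 0.05 the 6 regions gave 1 hit, in the mean, and all 11291 gave 1368, 463, 590, 1120 and 1177 in that order of contrasts. LMO1 +54.5 kb was that hit, although its fold was higher with TY1 than with HA in 5 of the 7 clones. Its score, a place within the list, was higher with HA than with TY1 in 6 of 6 mutant clones, by 0.035 to 1.02. This pattern was shown by 5.95% of all regions and by no other of the 6. The mean difference was 0.47 ± 0.18 (SE, adjusted p = 0.438, limma). With clone as a term, it was 0.47 ± 0.13 (SE, adjusted p = 0.0479, limma), 1 of 6 called beside 15.3% of all regions called and 7.31% called higher. The call was kept on leaving out the WT clone, beside 1770 of all 11291 regions called. Leaving out a mutant clone left 1 clone of its genotype, so whether the call held was not judged there. The call was lost when regions of at least 10 lists entered the fit (adjusted p = 0.0786, limma), beside 1802 of all 30542 regions called. With the clone term, 0 of 6 regions were called in R232fs, Y287X, G365R and truncating minus G365R, beside 21.7%, 0.815%, 4.08% and 17.1% of all regions. With clone as a random effect LMO1 +54.5 kb was called in R232fs (0.65, adjusted p = 0.0368, limma), 1 of 6 beside 25.3% of all regions. It was also called in the mean of the mutants (adjusted p = 0.018, limma), beside 20.3% of all regions called and 9.8% called higher. The WT clone, where HA marks wild-type protein, also had a higher HA score at this region, by 0.40.

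At the other shared regions the mean HA minus TY1 score was -0.24 ± 0.12 for TCF3 +53.7 kb (SE with the clone term, adjusted p = 0.203, limma) and 0.096 ± 0.050 for LMO2 +45.5 kb (adjusted p = 0.208). It was -0.097 ± 0.12 for LMO2 +49.5 kb, -0.053 ± 0.11 for TCF12 +10.8 kb and -0.014 ± 0.097 for LMO1 +9.5 kb. The median of the 6 was -0.033, beside 0.0014 over all regions. In fold, TY1 was above HA in all 7 clones at 5 of the 6 regions, all but LMO1 +54.5 kb, beside 41.2% of all regions, and none of these 5 was called for HA minus TY1 by ranks of fold. With 2 clones a genotype, a p-value here sets a mean difference against variation between clones of 1 line, which limma moderates over all regions. With the clone term this is variation of the HA minus TY1 difference, and without it variation of the scores within a genotype and tag.

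**Figure D5:**
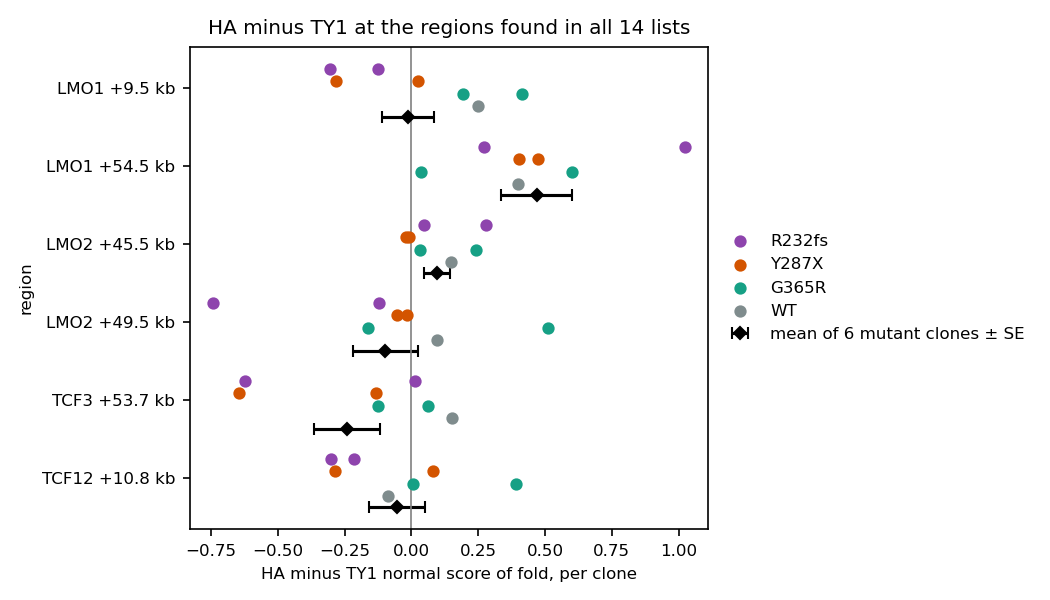
HA minus TY1 normal score of fold (horizontal axis) in each clone, coloured by genotype, at the 6 regions found in all 14 lists (vertical axis). Black diamonds are the mean of the 6 mutant clones with its SE from the fit with clone as a term, and LMO1 +54.5 kb is the region with all 6 mutant clones and the WT clone above 0.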

How the data were processed

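Jurkat chromatin was fixed for 15 min and stopped for 5 min, per the labels' protocols. Reads were processed with CASAVA 1.8, Bowtie2 2.2.9 and MACS2 2.2.7.1 on hg19, per the submitters' processing notes, with caller settings and control libraries not given in the sources used here. The authors deposited 1 peak list per library, with a fold enrichment, a −log10 p, a −log10 q and a score for each peak. The score was not used. Read depth is unknown. List length was 30563 to 86433 peaks, and the lowest −log10 q in each deposited list was 1.30 to 1.32.

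Peaks on chromosomes 1 to 22 and X were kept (1.41% to 2.17% lay elsewhere). Regions were summits with 100 bp on each side, merged on 1 bp of overlap. limma 3.58.1 (trend, 8 groups, 6 residual degrees of freedom) was run in R 4.3.3 on normal scores, and checked on simulated data. Tables used pandas 2.3.3 in Python 3.11.15. The threshold was 0.05 after Benjamini-Hochberg adjustment over 11291 regions, in 7 contrasts. Replicate numbers pair HA and TY1 lists, since same-numbered lists come from the same clone, by the clone names carried by the deposited lists. Their deviations from group means correlated at 0.792 in R232fs, 0.702 in Y287X and 0.503 in G365R. Clone as a term left 3 residual degrees of freedom.

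Named regions were, per window, the up to 5 of highest median fold, all called regions and, per genotype, the up to 3 of highest median fold held by both lists of 1 tag and neither of the other. Members and lists were chosen with earlier results of these data known. Alternatives changed the summit width, the −log10 q minimum (5), list length, the ranked value, the lists required (10) and the clones included.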

Additional observations from a re-analysis of the deposited data

Results flagged for a closer look

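The 6 shared regions and the ratio of window peaks were screened between each pair of mutant genotypes. In the comparisons listed here every clone of 1 genotype moved one way and every clone of another moved the opposite way. How often such a split occurs over all regions was not counted, so their number says nothing about these regions. None of these differences was tested, and each genotype had 2 clones. At LMO2 +45.5 kb the HA minus TY1 score of R232fs minus that of Y287X was 0.18, and that of Y287X minus that of G365R was -0.15. There the Y287X clones themselves had only -0.019 and -0.0080. At LMO1 +9.5 kb the HA minus TY1 score of R232fs minus that of G365R was -0.52. TCF12 +10.8 kb gave -0.45 for the same pair of genotypes. The log2 HA over TY1 ratio of window peaks differed by 1.21 between R232fs and Y287X and by 1.92 between R232fs and G365R. With lists of equal length both differences turned direction, to -0.41 between R232fs and Y287X and -0.51 between R232fs and G365R. The same ratio over all peaks of the lists was 0.75 in R232fs, -0.11 in Y287X and -0.96 in G365R.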

How the results depend on the processing

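The count of window regions was 122, and 75 with peaks of −log10 q of 5 or more. Under that minimum the log2 HA over TY1 ratio of window peaks was 0.34 in R232fs and -0.16 in Y287X, and with lists of equal length -0.51 in R232fs, -0.11 in Y287X, -0.0050 in G365R and 0.10 in WT. The cause was not tested. Of the 6 regions in all lists, the number was 7 with 250 bp on each side, 5 with the stricter minimum, 4 with lists of equal length and 9 by whole peaks.

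With clone as a replicate block only HA minus TY1 contrasts could be fitted, so truncating minus G365R in HA or in TY1 lists was not refitted. In the block fit, 1 of 6 regions (LMO1 +54.5 kb) was called for mean HA minus TY1, and no call changed in the other HA minus TY1 contrasts. That count was also 1 with the block on ranks of −log10 p or on log2 fold, and with a random clone effect. It was 0 with the block on regions of at least 10 lists, where LMO1 +54.5 kb had an adjusted p of 0.0786 (limma). Of all 11291 regions, that mean called 2481 with the block on ranks, 2063 on log2 fold and 2293 with the random effect. In R232fs, 1 region was called with a random clone effect and with the block on ranks of −log10 p or on log2 fold. Over all regions these settings called 2860, 2511 and 2741 in R232fs. With the block on ranks of −log10 p, 1 was called in HA minus TY1 of truncating minus G365R clones, beside 3212 of all regions. Adjusted p for LMO1 +54.5 kb in R232fs was 0.0368 with the random effect and 0.0751 with the block (limma). By ranks of −log10 p without the block, truncating minus G365R called 4472 of all regions in HA lists and 2740 in TY1 lists. In TY1 lists it called 238 of all 30542 regions when regions of at least 10 lists entered the fit. It called 404 of all 12318 regions there with 250 bp, and 388 of all 11291 with a random clone effect. Leaving out a mutant clone left 1 list in a group, so member counts without a clone are not set beside all regions. Truncating minus G365R calls in HA lists were 4 by ranks of −log10 p and 0 to 1 without a clone. In TY1 lists they were 4 by those ranks, 0 with regions of at least 10 lists, 0 with 250 bp, 0 with a random clone effect, and 0 to 2 without a clone.

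Some score differences, none of them called in the fit as reported, turned direction. By ranks of −log10 p, the mean HA minus TY1 at LMO1 +9.5 kb was 0.086 (0.025 by log2 fold), and HA minus TY1 in G365R at TCF12 +10.8 kb was -0.030. At LMO2 +45.5 kb those ranks gave 0.087 in Y287X, -0.059 in G365R, 0.12 for truncating minus G365R clones, and -0.012 and -0.13 for truncating minus G365R in HA and in TY1 lists. By log2 fold, LMO2 +45.5 kb in R232fs was -0.098. TCF3 +53.7 kb, truncating minus G365R in HA lists, was 0.64 by those ranks (adjusted p = 0.0349, limma) and 0.0059 by log2 fold. Leaving out a clone in turn, LMO1 +9.5 kb ranged from -0.28 to 0.026 in Y287X, -0.065 to 0.038 in the mean and -0.68 to 0.094 in TY1 truncating minus G365R. LMO1 +54.5 kb ranged from -0.059 to 0.51 and LMO2 +45.5 kb from -0.17 to 0.042 in HA minus TY1 of truncating minus G365R. LMO2 +49.5 kb ranged from -0.16 to 0.51 in G365R and -0.21 to 0.015 in the mean, and TCF12 +10.8 kb from -0.29 to 0.081 in Y287X and -0.12 to 0.011 in the mean. TCF3 +53.7 kb ranged from -0.62 to 0.012 in R232fs, -0.13 to 0.061 in G365R, -0.22 to 0.031 in HA truncating minus G365R, and -0.00047 to 0.44 in TY1 truncating minus G365R.

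Read depth behind the lists is unknown, so no interval is given for a fold. A region missing from a list had no peak past the authors' threshold there, which does not show that RUNX1 was absent. Where leaving out a clone left 1 list in a group, that list was assumed to vary like the others.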
